A study of Homo sapiens with 6 samples.

Results

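Small nucleolar RNA host genes are genes whose introns carry small nucleolar RNAs (snoRNAs), and they were described here in cells with and without forced expression of DNAJC12. The rows of the gene count table named GAS5, ZFAS1 or EPB41L4A-AS1, or with a symbol that starts with SNHG, were taken, which gave 28 of 58735 rows with 27 distinct symbols. RNA came from MDA-MB-231, a human cell line long established from a triple-negative breast tumour. In 3 libraries (DNAJC12 overexpression) cells had received, by transfection, a vector that carries DNAJC12, a co-chaperone of the J-domain class, and in the other 3 libraries they had received the empty vector. The labels name no promoter, clone or time after transfection, and nothing in them says whether replicates were grown as separate cultures, so the p-values speak of the spread among these libraries alone, and that spread may be technical. The comparison asked how the host gene transcripts stood in overexpression libraries against empty vector libraries.

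The box C/D snoRNAs guide methylation of ribosomal RNA, the box H/ACA snoRNAs guide pseudouridylation, and the small Cajal body RNAs (scaRNAs) do the same for spliceosomal RNA. They are cut out of the introns of a host transcript, and the spliced exons are left over as a long noncoding RNA. Many host genes start with a run of pyrimidines, as do the TOP mRNAs (mRNAs with a terminal oligopyrimidine tract) of ribosomal proteins. The spliced exons of GAS5 and several others hold short reading frames that ribosomes enter and leave early. They are then degraded by nonsense-mediated decay (NMD), which needs translation, and host RNA builds up in cells where translation is slowed.

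The host rows were checked for the snoRNAs their name implies. Of the 28 rows, 26 enclosed at least 1 snoRNA or scaRNA row of the table on the same strand, and 27 enclosed at least 1 snoRNA gene of RefSeq (GRCh38.p14). GAS5 enclosed 0 snoRNA rows of the table but 11 RefSeq snoRNA genes. SNHG27 enclosed none by either source. The sequences below are the products of host genes that the results turn on, read from GENCODE 29 on GRCh38, 5′ to 3′. Capitals mark box C (TGATGA within the first 20 bases) and box D (CTGA within the last 15 bases) in SNORD sequences, and the ACA that stands 3 bases before the end in SNORA sequences, all sought on the sense strand. SNORD93 holds no TGATGA in its first 20 bases. Of 278 SNORD sequences in the annotation, 66.5% held both boxes by this search, and 76.2% of 147 SNORA sequences held the ACA.
SNORD50B (in SNHG5, chr6:85677589-85677658, minus strand): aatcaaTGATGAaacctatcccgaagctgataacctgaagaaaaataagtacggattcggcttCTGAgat
SNORA24 (in SNHG8, chr4:118279190-118279320, plus strand): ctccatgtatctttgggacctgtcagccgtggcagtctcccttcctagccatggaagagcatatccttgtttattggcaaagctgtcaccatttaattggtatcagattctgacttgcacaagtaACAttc
SNORA13 (in EPB41L4A-AS1, chr5:112161485-112161617, plus strand): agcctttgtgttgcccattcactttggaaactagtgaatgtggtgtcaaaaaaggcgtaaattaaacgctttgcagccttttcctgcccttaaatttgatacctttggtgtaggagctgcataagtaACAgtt
SNORD93 (in SNHG26, chr7:22856613-22856686, plus strand): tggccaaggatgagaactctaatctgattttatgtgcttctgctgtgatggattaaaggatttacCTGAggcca
SNORD1B (in SNHG16, chr17:76561109-76561192, plus strand): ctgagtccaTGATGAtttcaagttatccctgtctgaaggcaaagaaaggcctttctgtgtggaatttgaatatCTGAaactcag
SNORD12 (in ZFAS1, chr20:49280683-49280772, plus strand): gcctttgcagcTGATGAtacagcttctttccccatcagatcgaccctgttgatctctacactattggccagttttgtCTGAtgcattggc
SNORD12B (in ZFAS1, chr20:49280319-49280409, plus strand): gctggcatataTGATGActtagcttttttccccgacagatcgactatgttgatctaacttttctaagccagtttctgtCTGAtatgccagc
SNORD12C (in ZFAS1, chr20:49278940-49279028, plus strand): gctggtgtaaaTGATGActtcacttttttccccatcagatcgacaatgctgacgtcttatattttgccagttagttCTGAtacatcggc
The 3 SNORD12 copies of ZFAS1 are shown because 1 host can carry a family, and their longest common stretch was cagatcgac, 9 bases.

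The snoRNA rows themselves were hardly read. The 28 hosts enclosed 136 such rows, 84 of them in SNHG14, the long host on chromosome 15. All 44 rows with bases in an annotated exon of their host, SNORD50B, SNORA24 and SNORD12 among them, were listed at 0 counts in all 6 libraries. Of the 21 rows outside host exons and outside SNHG14, 17 had counts, 863 in all. SNORA73B in SNHG3 had the highest total, with 25, 26 and 25 counts in the overexpression libraries (in the order of replicates 1 to 3, as in all lists that follow) against 54, 22 and 31. SNORA71C in SNHG17 had 39, 27 and 30 against 9, 24 and 27, and SNORD104 in SNHG25 had 27, 23 and 33 against 12, 35 and 22. SNORA13 had 2, 0 and 9 counts against 0, 0 and 1. The values below are those of the host transcripts, and the snoRNAs themselves were not compared. Whether the counts of 0 in rows with host exon bases come from how reads were assigned was not tested.

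The starts of the host genes were read from RefSeq promoters on GRCh38.p14, where 22 of the 26 symbols other than SNHG28 were matched (not SNHG6, SNHG9, SNHG15 and SNHG25). The sequences below run from 20 bases before to 30 bases after the RefSeq start and are shown because a pyrimidine run at the start is the sequence feature that host genes share with ribosomal protein genes. Capitals mark the longest run of C and T, on the strand of the gene, with at least 1 base within 5 bases of the start.
SNHG5 (chr6:85678704-85678753, minus strand): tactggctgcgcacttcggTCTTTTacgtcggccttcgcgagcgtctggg
SNHG8 (chr4:118278742-118278791, plus strand): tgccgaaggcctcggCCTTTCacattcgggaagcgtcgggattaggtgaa
SNHG16 (chr17:76557744-76557793, plus strand): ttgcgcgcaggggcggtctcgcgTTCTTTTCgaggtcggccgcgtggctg
SNHG26 (chr7:22854220-22854269, plus strand): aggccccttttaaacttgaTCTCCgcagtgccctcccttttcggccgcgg
SNHG7 (chr9:136728155-136728204, minus strand): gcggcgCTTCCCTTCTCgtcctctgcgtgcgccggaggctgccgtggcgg
SNHG1 (chr11:62855856-62855905, minus strand): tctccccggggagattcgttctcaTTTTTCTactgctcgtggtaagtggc
ZFAS1 (chr20:49278622-49278671, plus strand): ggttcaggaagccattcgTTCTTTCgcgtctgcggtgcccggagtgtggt
EPB41L4A-AS1 (chr5:112160506-112160555, plus strand): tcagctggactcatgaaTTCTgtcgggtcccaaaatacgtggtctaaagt
GAS5 (chr1:173869016-173869065, minus strand): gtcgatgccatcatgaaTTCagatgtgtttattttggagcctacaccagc
By this search, a run of at least 5 bases stood at or near the start of 14 of 22 members (63.6%). The shares were 35.7% of all 35116 promoters and 84.6% of 78 promoters of cytosolic ribosomal protein genes. The run was 11 bases long in SNHG7, 8 in SNHG16, 7 in SNHG1 and ZFAS1, 6 in SNHG5 and SNHG8, 5 in SNHG26, 4 in EPB41L4A-AS1 and 3 in GAS5. The runs of SNHG7 (from -14 relative to the start), SNHG14 (from -9) and GAS5 (from -3) ended upstream of the RefSeq start. SNHG7 and SNHG14 are counted among the 14. The RefSeq start equals the start in the gene table for SNHG7 and EPB41L4A-AS1 and lies 2 to 62 bases away for SNHG16, SNHG5, SNHG1, SNHG8 and SNHG26. It lies 163 bases upstream for GAS5 and 464 bases downstream for ZFAS1, so these windows do not show the start in the gene table.

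The libraries held 17967283 to 18887497 counts. DNAJC12 had 25.7 to 33.1 CPM (counts scaled to a common library size) in the overexpression libraries and 0 to 0.0537 CPM with the empty vector. The mesenchymal genes of the line, VIM and CD44, averaged 174 and 58.6 FPKM, ESR1 and PGR had 4 and 7 counts over all libraries, and ERBB2, CDH1 and EPCAM averaged 9.21, 0.640 and 2.72 FPKM. Of leukocyte genes, PTPRC had 3 counts over all libraries and CD3E had 0. Of endothelial genes, PECAM1 had 3.81 to 5.51 CPM in overexpression libraries and 15.1 to 22.7 CPM with the empty vector, while VWF and CDH5 had at most 0.223 CPM in any library. Of fibroblast genes, PDGFRB had 46.1 to 72.5 against 25.4 to 27.3 CPM, COL1A1 4.60 to 7.90 against 5.90 to 10.01, and COL3A1 had 2 counts in all. The part of these genes in the results was not tested, and in bulk RNA fewer cells of a type and less RNA per cell cannot be told apart. Overexpression replicate 2 stood apart, with a mean GC content of its counts of 54.3% against 51.9% and 52.8% in its group and 52.4 to 53.7% with the empty vector, so calls are also given without it.

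Of the 28 host rows, 21 had enough counts to be tested (a filter that needs about 10 counts in the libraries of 1 group). The other 7 were SNHG9, SNHG14, SNHG22, SNHG25, SNHG27 and both SNHG28 rows, with at most 16 counts in any library. The shorter SNHG28 row (ENSG00000188004) lies wholly within the exons of the longer (ENSG00000256029) and had 0 counts. SNHG14, which carries the imprinted SNORD115 and SNORD116 repeats active in neurons, had 8 counts over all 6 libraries across 43324 exonic bases.

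Host genes differed widely in level. FPKM is the count scaled by gene length and library size as the authors computed it. By FPKM, SNHG5 was the most abundant, with a mean of 84.6 over the 6 libraries, followed by GAS5 at 73.1. SNHG6 (40.9), SNHG8 (40.2), ZFAS1 (28.6) and SNHG7 (23.2) came next, then SNHG1 (20.96), SNHG16 (19.9), SNHG3 (18.7) and SNHG15 (15.8). Among these 10, the libraries of neighbours in the order overlapped, except that all libraries of GAS5 lay above all of SNHG6. SNHG20 and SNHG21 lay lowest of the tested genes, at 0.477 and 0.534. The 28 rows together took 0.109 to 0.149% of all counts, and SNHG5 and GAS5 made up 38.1 to 42.6% of that share.

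**Figure D1:**
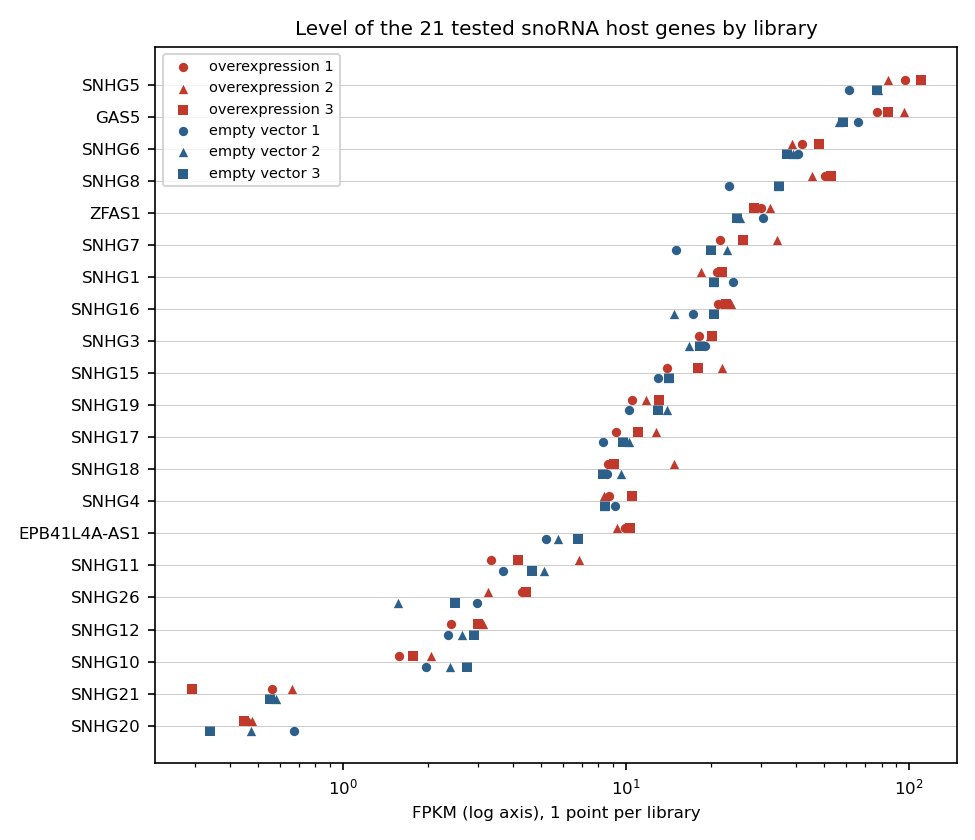
FPKM (log axis) of the 21 tested snoRNA host genes, 1 point per library, overexpression in red and empty vector in blue, with circles, triangles and squares for replicates 1, 2 and 3. SNHG5, GAS5, SNHG8, SNHG16, EPB41L4A-AS1 and SNHG26 have all red points to the right of all blue points.

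With DNAJC12, no host gene passed the test, and more fold changes lay above 0 than below. None of the 21 tested members was called by edgeR (quasi-likelihood F test, Benjamini-Hochberg over all genes), against 0.585% of all genes tested that were called higher and 0.661% called lower. With p under 0.05 before adjustment, 4 members were higher and 0 lower, against 7.25% and 6.86% of all genes. The DESeq2 Wald test and limma on log2 FPKM also called 0, against 3.22% and 1.24% of all genes called in either direction. In CPM, 6 members were higher in every overexpression library than in every empty vector library and 0 were lower in every one, against 9.26% and 10.8% of all genes. The fold change was above 0 in 16 members and below 0 in 5, with a median log2 fold change of 0.18, against 54.9% of all genes above 0 and a median of 0.05. Other noncoding genes had a median of 0.14 over 1262 tested genes. Of these, 193 were higher and 115 lower without overlap in CPM. With p under 0.05 before adjustment in the edgeR test, 141 of them were higher and 71 lower. Of the 16 members with a mean of at least 200 counts, 15 had a fold change above 0, and of the 5 with fewer, 1 did. No share of all genes at that count level is given beside this split. Some of the 15 lay near 0, such as SNHG11 (0.09 ± 0.31 SE) and SNHG4 (0.09 ± 0.20 SE).

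EPB41L4A-AS1, a host on chromosome 5 (112160526 to 112164276, plus strand) for SNORA13, had the smallest p of the members. It was read at 33.8, 31.2 and 35.3 CPM in overexpression replicates 1 to 3 and at 17.7, 19.3 and 22.8 CPM with the empty vector. All overexpression libraries lay well above all empty vector libraries, with little spread inside the groups. The log2 fold change was 0.75 ± 0.22 SE with an edgeR quasi-likelihood adjusted p of 0.153, and the means were 33.4 ± 2.04 and 19.9 ± 2.63 CPM (SD, n = 3). It stayed above 0 in 17 of 17 alternative analyses, from 0.66 to 0.86, and was called in 5 of them. The gene shares 49.6% of its exon bases with EPB41L4A on the opposite strand, and whether the counting used strand is not known. EPB41L4A had 0.443 to 1.002 CPM across the libraries, with a log2 fold change of -0.05.

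SNHG8, a short host on chromosome 4 (118278709 to 118279823, plus strand) for SNORA24, had 47.1, 41.9 and 49.8 CPM with DNAJC12 and 21.7, 31.9 and 32.2 CPM with the empty vector. The groups did not overlap, and empty vector replicate 1 lay below the other two of its group. Its log2 fold change was 0.69 ± 0.23 SE (edgeR quasi-likelihood, adjusted p 0.207). SNHG8 overlapped no other gene of the table apart from its snoRNA.

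GAS5, growth arrest specific 5, is the host on chromosome 1 (173863900 to 173868882, minus strand) known to accumulate in arrested cells and a model substrate of NMD. Its level was 285, 348 and 312 CPM in overexpression replicates 1 to 3 and 243, 205 and 214 CPM with the empty vector. The groups did not overlap, and the smallest gap lay between overexpression replicate 1 and empty vector replicate 1. The log2 fold change was 0.52 ± 0.19 SE with an edgeR quasi-likelihood adjusted p of 0.262, and the means were 315 ± 31.8 and 220 ± 19.6 CPM (SD, n = 3). After a correction for GC content the same libraries gave 205, 493 and 279 against 220, 244 and 217, so that the groups overlapped, at a log2 fold change of 0.52 (edgeR quasi-likelihood, adjusted p 0.206).

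SNHG5, on chromosome 6 (85660950 to 85678748, minus strand), hosts the paired snoRNAs SNORD50A and SNORD50B. It had 276, 238 and 314 CPM with DNAJC12 and 174, 219 and 217 CPM with the empty vector. The groups did not overlap, overexpression replicate 2 being the lowest of its group. The log2 fold change was 0.44 ± 0.20 SE (edgeR quasi-likelihood, adjusted p 0.375).

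SNHG16 (chromosome 17, 76557766 to 76565348, plus strand), host of the 3 SNORD1 genes, had 115, 127 and 123 CPM against 93.5, 79.2 and 110.0 CPM. SNHG26 (chromosome 7, 22854178 to 22861579, plus strand), host of SNORD93, had 11.4, 8.60 and 11.8 CPM against 7.89, 4.12 and 6.55 CPM. In both the lowest overexpression library lay just above the highest empty vector library. Their log2 fold changes were 0.37 ± 0.20 SE and 0.78 ± 0.31 SE (edgeR quasi-likelihood, adjusted p 0.464 and 0.304). SNHG16 shares 30.6% of its exon bases with an opposite-strand gene model (AC015802.6).

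SNHG7 (chromosome 9, 136721366 to 136728184, minus strand) and SNHG15 (chromosome 7, 44983023 to 44986961, minus strand), the hosts of the SNORA17 genes and of SNORA9, overlapped between the groups in CPM. SNHG7 had 94.6, 149 and 115 against 65.9, 99.0 and 87.6 CPM, and SNHG15 had 51.9, 80.1 and 66.5 against 48.0, 51.3 and 52.0 CPM. In both, overexpression replicate 2 was the highest library and overexpression replicate 1 reached into the empty vector range. Their log2 fold changes were 0.50 ± 0.24 SE and 0.39 ± 0.22 SE (adjusted p 0.400 and 0.468, edgeR quasi-likelihood test). SNHG7 shares 25.2% of its exon bases with FAM69B on the opposite strand, which had 7.71 to 18.6 CPM.

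The remaining abundant hosts differed less between the groups. ZFAS1, on chromosome 20 (49278178 to 49295738, plus strand) antisense to ZNFX1, had 68.3, 72.8 and 64.8 CPM against 69.4, 56.9 and 55.5 CPM. Empty vector replicate 1 lay inside the overexpression range. ZNFX1, which shares 11.1% of the exon bases of ZFAS1, had 126, 159 and 125 against 158, 157 and 145 CPM. SNHG1, the host of a run of box C/D snoRNAs on chromosome 11 (62851988 to 62855914, minus strand), had 79.9, 69.4 and 83.4 against 90.5, 76.2 and 77.3 CPM. Its groups overlapped, and the highest library was empty vector replicate 1. SNHG3 had 74.9, 81.5 and 83.9 against 78.6, 68.4 and 75.2 CPM, and SNHG6 had 53.2, 48.2 and 61.1 against 51.0, 48.7 and 46.6 CPM. The log2 fold changes of ZFAS1, SNHG1, SNHG3 and SNHG6 were 0.18 ± 0.20, -0.07 ± 0.19, 0.11 ± 0.19 and 0.15 ± 0.20 (SE) (edgeR quasi-likelihood, adjusted p 0.738 to 0.911). The log2 fold change of SNHG1 was above 0 when overexpression replicate 2 (0.0041) or empty vector replicate 1 (0.0073) was left out. SNHG1 and ZFAS1, like GAS5, are known from other work as NMD substrates.

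**Figure D2:**
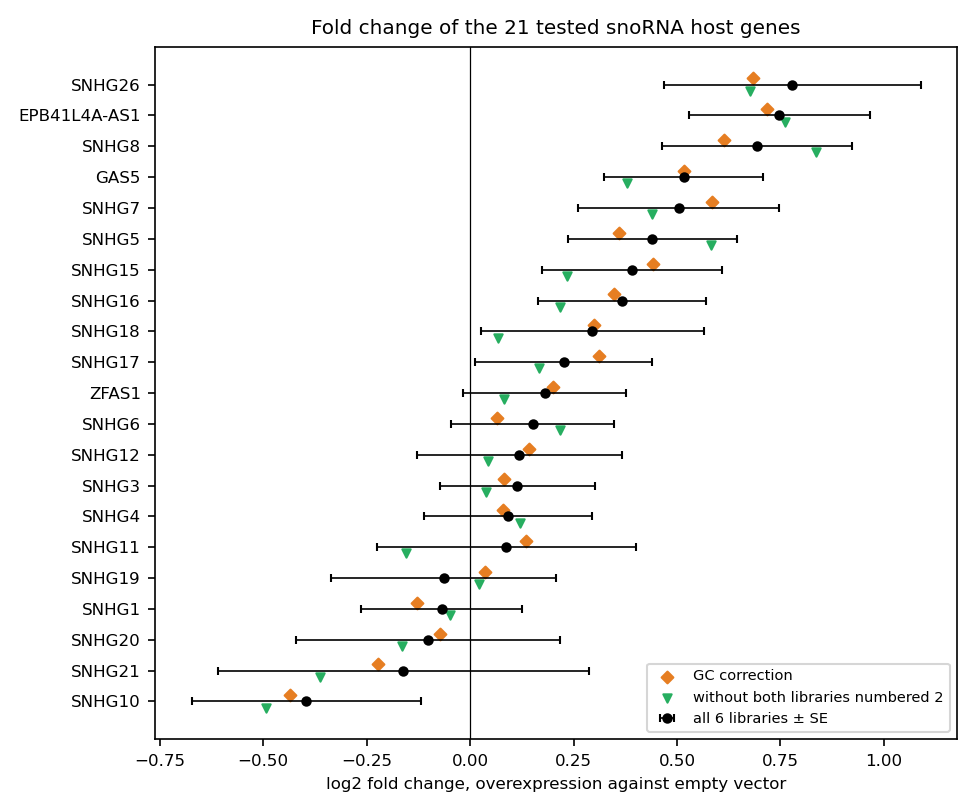
Log2 fold change of the 21 tested snoRNA host genes, overexpression against empty vector: black points with bars are the fit to all 6 libraries ± SE, orange diamonds the fit after GC correction and green triangles the fit without both libraries numbered 2. The values run from -0.40 (SNHG10) to 0.78 (SNHG26) in the fit to all libraries.

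The other 9 tested hosts were SNHG4, SNHG10, SNHG11, SNHG12, SNHG17, SNHG18, SNHG19, SNHG20 and SNHG21. Their groups overlapped, and their log2 fold changes ran from -0.40 (SNHG10) to 0.30 (SNHG18) (edgeR quasi-likelihood, adjusted p 0.570 or more). SNHG10, the host of SCARNA13, had 3.11, 3.98 and 3.50 CPM against 3.86, 4.67 and 5.38 CPM. It was the member with the lowest log2 fold change and lay below 0 in 17 of 17 alternatives. SNHG10 shares 20.1% of its exon bases with GLRX5 on the opposite strand, and whether the counting used strand is not known. GLRX5 had 69.8 to 122.8 CPM across the libraries, with a log2 fold change of -0.17.

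Summed over the 28 rows, the host genes had 1318, 1460 and 1471 CPM in overexpression replicates 1 to 3 and 1088, 1098 and 1132 CPM with the empty vector. All 3 overexpression libraries lay above all 3 empty vector libraries. The sum is weighted by its abundant members, and the median member gave a smaller difference. The median gap of the 21 tested members to the empty vector mean was 0.02, 0.27 and 0.25 (log2) in overexpression replicates 1 to 3. It was -0.03, 0.003 and 0.06 in the empty vector libraries, so overexpression replicate 1 lay within their range.

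**Figure D3:**
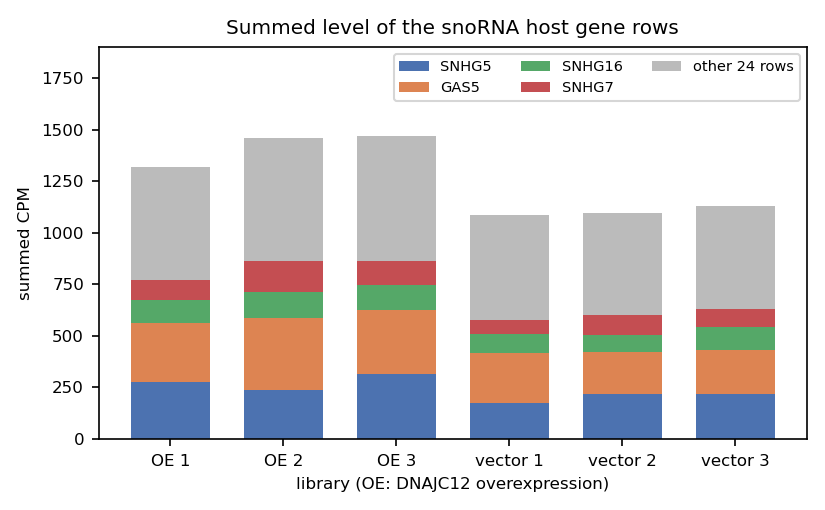
Summed CPM of the 28 host rows in each library, with the parts of SNHG5, GAS5, SNHG16 and SNHG7 in colour and the other 24 rows in grey. The overexpression libraries reach 1318 to 1471 CPM and the empty vector libraries 1088 to 1132 CPM.

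Which members were called differed with the libraries used and with GC correction. Without overexpression replicate 2, EPB41L4A-AS1, SNHG8, SNHG5, SNHG26 and GAS5 were called higher (adjusted p of 0.0105, 0.0159, 0.0229, 0.0334 and 0.0418 in the edgeR quasi-likelihood test), 5 of 21 members, against 12.1% of all genes in that fit. Without both libraries numbered 2, SNHG8, EPB41L4A-AS1 and SNHG5 were called higher, 3 of 21 against 10.3% of all genes. The p-values of that fit allow little for uncertainty in the spread of each gene. After GC correction SNHG7, EPB41L4A-AS1 and SNHG15 were called higher (adjusted p of 0.00525, 0.00792 and 0.0203), 3 of 21 against 8.84%. No member was called lower in these 3 fits, against 10.4%, 8.41% and 8.53% of all genes. EPB41L4A-AS1 was the member called in all 3.

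The gap between overexpression replicate 2 and the rest of its group moved with the base composition of the hosts. The GC content of the 21 tested hosts ran from 41.1% (SNHG26) to 59.4% (SNHG7), with a median of 48.4%, against 50.3% for all genes tested. The gap of overexpression replicate 2 to the mean of replicates 1 and 3 was -0.43 (log2) in SNHG26, -0.31 in SNHG5 and -0.21 in SNHG8. It was 0.51 in SNHG7, 0.45 in SNHG15 and 0.85 in SNHG11 (58.3% GC). Of the 8 hosts with at least 50% GC, 7 were higher in replicate 2, and of the 13 with less, 7 were lower. GAS5 was among the other hosts under 50% GC, at 43.6% with a gap of 0.22. Across the 21 hosts Pearson's r between GC content and gap was 0.62 and Spearman's rho 0.62, a description of points from the same libraries, and over 14518 genes they were 0.76 and 0.79.

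**Figure D4:**
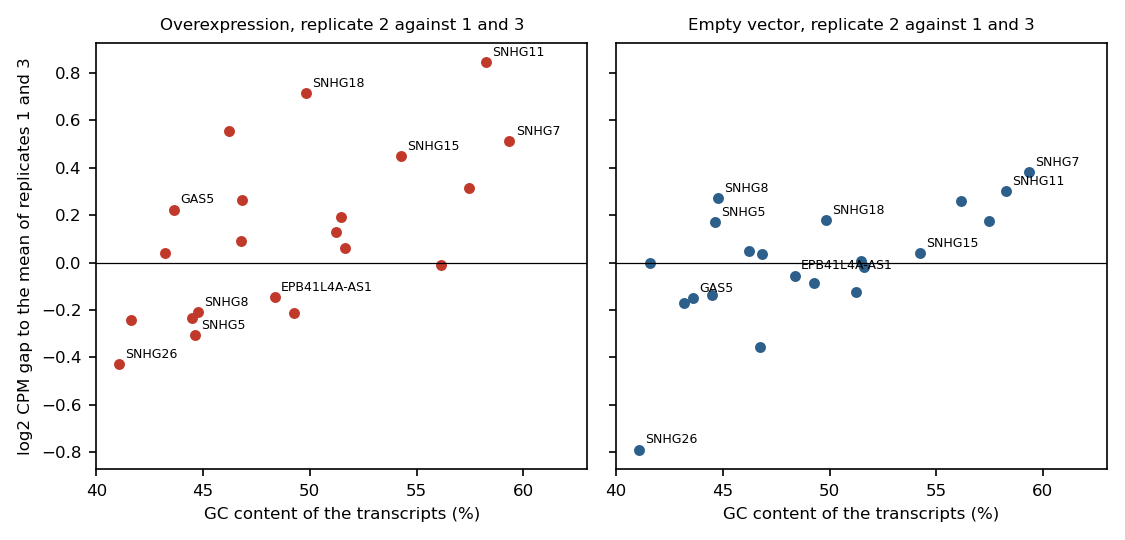
Gap of replicate 2 to the mean of replicates 1 and 3 in log2 CPM against transcript GC content (%), 1 point per tested host gene, overexpression on the left and empty vector on the right. On the left the gap runs from -0.43 in SNHG26 to 0.85 in SNHG11, and GAS5 lies above 0 at 43.6% GC.

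GC correction takes a smooth trend with GC content out of each library. After it 5 of 21 hosts did not overlap, all higher, against 18.1% of all genes higher and 18.1% lower. SNHG7 then had 120.3, 117 and 127 CPM against 71.0, 87.2 and 84.1, and SNHG15 had 59.4, 70.3 and 71.1 against 49.2, 47.7 and 50.8. The spread inside the overexpression group was narrower for both than before the correction. EPB41L4A-AS1 (30.5, 35.1 and 34.0 against 17.0, 20.5 and 23.0), SNHG26 and SNHG17 were the other 3. SNHG5 gave 208, 322 and 284 against 159, 254 and 221, and its groups overlapped. The overexpression libraries of SNHG5 and GAS5 were spread wider after the correction than before. So were those of SNHG1, SNHG3, SNHG6, SNHG8, SNHG16 and SNHG26, among others, while those of ZFAS1 were spread narrower. The median gap of the 21 tested members to the empty vector mean was then 0.004, 0.52 and 0.26 (log2) in overexpression replicates 1 to 3. Before the correction it was 0.02, 0.27 and 0.25.

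Genes of the decay pathway that acts on host transcripts mostly had fold changes above 0, and none passed the test on all 6 libraries. Of 24 NMD factors, 0 passed the edgeR quasi-likelihood test, against 0.585% of all genes called higher and 0.661% called lower. In 21 the fold change was above 0, against 54.9% of all genes, and the median log2 fold change was 0.23, against 0.05. With p under 0.05 before adjustment in that test, 1 was higher and 0 were lower, against 7.25% and 6.86% of all genes. DESeq2 and limma called 0. SMG5, which recruits decay enzymes to UPF1, had 185, 332 and 220 CPM against 179, 198 and 176 CPM. EIF4A3, the helicase core of the exon junction complex that marks spliced RNA, had 171, 207 and 186 against 149, 182 and 174 CPM. Without overexpression replicate 2, 5 factors were called higher, against 12.1% of all genes, without both libraries numbered 2 there were 3, against 10.3%, and after GC correction 2, against 8.84%. With no filter on low counts 1 was called higher, against 1.34% of all genes.

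Of 16 other genes with transcripts known as NMD-sensitive, 1 was called higher and 0 lower, against 0.585% and 0.661% of all genes. The fold change was above 0 in 12 and below 0 in 4, with a median log2 fold change of 0.36. With p under 0.05 before adjustment in the edgeR quasi-likelihood test, 5 were higher and 0 lower (7.25% and 6.86% of all genes were). The gene called was SLC3A2, the heavy chain of amino acid transporters. It had 649, 1134 and 806 CPM against 263, 362 and 330 CPM (log2 fold change 1.44, adjusted p 0.0312 in the edgeR quasi-likelihood test). SLC3A2 starts at 62856102 on the plus strand, next to SNHG1, which starts at 62855914 on the minus strand and had a log2 fold change of -0.07. ATF4, a transcription factor that the integrated stress response switches on, had 594, 691 and 685 against 375, 403 and 403 CPM (log2 fold change 0.74, adjusted p 0.0923). Several of these genes, SLC3A2 included, are also targets of ATF4, so decay and transcription cannot be told apart here. SLC3A2 was not called without overexpression replicate 3 or without any 1 of the empty vector replicates, where 0 genes of the list passed. In the fit without overexpression replicate 2, 8 of 16 were called higher and 0 lower, against 12.1% and 10.4% of all genes. Without both libraries numbered 2, 9 of 16 were called higher, against 10.3% of all genes. After GC correction 9 were called higher and 1 lower, against 8.84% and 8.53%. By DESeq2 there were 4 higher, and by limma 1, against 1.64% and 0.594% of all genes called higher.

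Among 17 regulators of TOP and global translation, 1 was called higher and 0 lower, against 0.585% and 0.661% of all genes. The fold change was above 0 in 11 and below 0 in 6, with a median log2 fold change of 0.25. With p under 0.05 before adjustment in the edgeR quasi-likelihood test, 6 were higher and 0 lower (7.25% and 6.86% of all genes were). SESN2, an inhibitor of mTORC1 signalling induced by stress, had 170, 247 and 182 CPM against 37.3, 48.1 and 45.7 CPM (log2 fold change 2.19, adjusted p 0.00315 in the edgeR quasi-likelihood test). EIF4EBP1, which binds the cap-binding factor eIF4E and blocks initiation, had 231, 433 and 304 against 129, 169 and 152 CPM (adjusted p 0.0783). PPP1R15A, a stress-induced subunit of the phosphatase that acts on eIF2 alpha, had 790, 1119 and 1007 against 592, 662 and 625 CPM (adjusted p 0.182). In both the groups did not overlap. Without overexpression replicate 2, 6 of 17 were called higher and 1 lower, against 12.1% and 10.4% of all genes. After GC correction the list's median was 0.06, with 6 of 17 called higher and 1 lower, against 8.84% and 8.53% of all genes. By DESeq2 there were 3 higher, and by limma 1, against 1.64% and 0.594% of all genes called higher.

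No mRNA of the lists that share the pyrimidine start with host genes passed the test on all 6 libraries. Of 79 cytosolic ribosomal protein genes, 0 passed, 1 was higher and 0 lower with p under 0.05 before adjustment in the edgeR quasi-likelihood test, and DESeq2 and limma called 0. Their median log2 fold change was 0.10, and -0.01 without overexpression replicate 2. In that fit 1 was called higher and 2 lower, against 12.1% and 10.4% of all genes. RPL13A, itself a host of snoRNAs, had 3339, 5836 and 4516 CPM against 3540, 4242 and 3998 CPM, and RPS18 had 2743, 4066 and 3555 against 2720, 2947 and 2831 CPM. Of 15 other TOP mRNAs 0 passed in the edgeR test, 0 were past an unadjusted p of 0.05, and DESeq2 and limma called 0, with a median of 0.06. With 1 library left out this median ran from -0.01 (without empty vector replicate 2) to 0.26 (without empty vector replicate 1). It was 0.18 without overexpression replicate 2, where 2 were called higher, against 12.1% of all genes. EEF1A1, the elongation factor that brings tRNA to the ribosome, had 18188, 16881 and 18739 CPM against 15680, 12674 and 13937 CPM, without overlap. EEF2, the translocation factor, had 1501, 2692 and 1792 against 1929, 2327 and 2041 CPM.

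Hosts outside the naming rule had no gene past the edgeR test on all 6 libraries. Of 10 tested noncoding genes that enclose a snoRNA row but are no members, 0 passed (edgeR quasi-likelihood, 0 also with p under 0.05 before adjustment, and 0 by DESeq2 and limma), with a median log2 fold change of 0.23. LRRC75A-AS1 (now also named SNHG29) had 338, 345 and 354 CPM against 304, 296 and 295 CPM, with no overlap and a log2 fold change of 0.21. DANCR had 40.4, 73.6 and 48.9 against 48.2, 46.7 and 42.2 CPM. Of the 10, 0 were called in the fit without overexpression replicate 2, against 12.1% of all genes called higher and 10.4% lower. Of 215 tested protein-coding hosts, 0 passed, and 12 were higher and 4 lower with p under 0.05 before adjustment (7.25% and 6.86% of all genes were). DESeq2 called 4 higher, against 1.64% of all genes, and limma 0, and the median log2 fold change was 0.08. In the edgeR fits to changed data, 19 of these hosts were called higher and 11 lower after GC correction (8.84% and 8.53% of all genes were), 36 and 12 of 217 without overexpression replicate 2 (12.1% and 10.4%), and 32 and 11 of 217 without both libraries numbered 2 (10.3% and 8.41%). RPS2 was the most abundant of them after RPL13A, at 2251, 4575 and 3055 against 2541, 3599 and 3183 CPM. The 21 tested members and these host groups were not tested against each other.

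Genes for the proteins that bind snoRNAs lay on both sides of the empty vector level. Of 17 snoRNP proteins and assembly factors 0 passed in the edgeR quasi-likelihood test, and 1 was higher and 1 lower with p under 0.05 before adjustment. DESeq2 called 1 higher, against 1.64% of all genes, and limma 0. After GC correction 1 was called higher and 1 lower, against 8.84% and 8.53% of all genes. Without overexpression replicate 2 the calls were 2 higher and 2 lower, against 12.1% and 10.4% of all genes. Their median log2 fold change was -0.08, with 11 of 17 below 0. FBL, fibrillarin, the methyltransferase of box C/D particles, had 276, 471 and 357 CPM against 393, 419 and 372 CPM. NOP10, a core protein of box H/ACA particles, had 107, 145 and 128 against 132, 124 and 134 CPM.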

How the data were processed

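Gene counts and FPKM per gene in 6 libraries (3 with DNAJC12 and 3 with the empty vector, groups and numbers from the labels) were taken as the authors deposited them. HISAT2 2.0.5 and the build hg19 are named in the submitters' processing notes. The coordinates of all 58735 rows equal GENCODE 29 on GRCh38, so coordinates are given as GRCh38. Neither the program that counted reads nor whether it used strand is given in the sources used here. The deposited FPKM divide counts by the listed gene length and by a library size that is not the summed counts. Libraries held 17967283 to 18887497 counts.

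Groups were compared with edgeR 4.0.16 in R 4.3.3 (quasi-likelihood test, TMM, filterByExpr with a minimum count of 10 and a minimum total of 15, robust dispersions). P-values were adjusted by Benjamini-Hochberg over 14520 genes, threshold 0.05. CPM use TMM library sizes. The SE is the log2 fold change over the root of F. Without both libraries numbered 2, with the replicate block alone and with no filter, p-values lay at or near normal tail values of log2 fold change over SE. They thus allow little for uncertainty in the spread of each gene, unlike those of the main fit. How far this raised the number of calls was not tested. With 3 libraries a group the smallest p of an exact permutation test is 0.1, so none was run. Alternatives were DESeq2 1.42.0 (Wald test, size factors), limma 3.58.1 on log2 FPKM (pseudocounts 1 and 0.1, filter 0.5 or none), other count filters, a replicate block, GC correction (loess, span 0.3, on log2 CPM with prior count 2), and libraries left out. A pseudocount understates changes of low genes. The main edgeR fit was tested on counts simulated without a GC trend, and the alternatives were not.

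The members, lists and alternatives were chosen with earlier results of these data known. Members named were those with no overlap between groups, GAS5, ZFAS1, EPB41L4A-AS1 and the 10 most abundant by FPKM. From the 8 related lists, up to 4 called genes were named, and the 2 most abundant where fewer than 2 passed. SNHG10, SNHG11, SNHG17 and SNHG18 were named after their values were seen, as were the snoRNA rows with counts. Of the marker lists, 1 gene is not reported here.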

Additional observations from a re-analysis of the deposited data

How the results depend on the processing

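The median log2 fold change of the members stayed between 0.12 and 0.28 in the 17 alternatives, and 0 members were called lower in any. Of 204 values of the 12 named members, 181 kept their direction and side of the threshold, 21 passed it, and 2 changed sign (SNHG1, which ran from -0.14 to 0.0073 when 1 library was left out, at 0.0041 without overexpression replicate 2 and 0.0073 with empty vector replicate 1 left out). Genes called over the whole table (181) came to 527 with the DESeq2 Wald test, 688 with no filter, 12 with limma and no filter, 2521 after GC correction and 2754 with both libraries numbered 2 left out. Genes called in the related lists (2) came to 12, 13, 0, 52 and 66 under the same settings, and members called higher (0) to 3 after GC correction and also to 3 with both libraries numbered 2 left out. Leaving out 1 library gave 25 to 3366 genes, 1 to 76 genes of the related lists and 0 to 5 members called higher, each highest without overexpression replicate 2.

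Same-numbered libraries deviated together with r of 0.45, 0.58 and 0.03, so the numbers were not taken to pair them. Overexpression replicates 1 and 2 correlated best with their own number, and replicate 3 with empty vector replicate 1 (0.22). The replicate block gave 1937 genes, 36 genes of the related lists and 5 members called higher (SNHG8, EPB41L4A-AS1, SNHG26, GAS5 and SNHG7, against 6.96% of all genes). With GC correction the block gave 3095 and 68, and 5 members called higher (SNHG7, EPB41L4A-AS1, SNHG8, SNHG15 and SNHG5, against 10.9% of all genes). The cause of these shifts was not tested. The 7 untested members had at most 16 counts in any library.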
